A study of Homo sapiens with 8 samples.

Results

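The nuclear genes of oxidative phosphorylation were followed across the peak lists of a chromatin immunoprecipitation sequencing (ChIP-seq) study of the transcription factors Sp1 and CTCF. Members were the protein-coding genes of GENCODE release 44 on chromosomes 1 to 22 and X whose symbols begin NDUFA, NDUFB, NDUFC, NDUFS or NDUFV, SDHA to SDHD, UQCR, CYC1, CYCS, COX4I, COX5, COX6, COX7, COX8 or ATP5. The assembly factors named NDUFAF were left out of this set. The rule found 92 of 19970 protein-coding genes, and it used names only, not measured values. A gene was counted for a library when a peak summit lay within 1 kb of any of its annotated transcript starts. Members had a median of 6 starts and all genes a median of 5.

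All libraries came from U-2 OS, a human osteosarcoma cell line, crosslinked with 1% formaldehyde for 6 min. Sp1 was immunoprecipitated from cells with an endogenous V5-Halo-SP1 knock-in, which the titles call the parental line. Antibody 1 (MA5-32497) and antibody 2 (PA5-29165) gave 1 library each, and normal rabbit IgG (ab46540/1) from the same line gave 1 control library. CTCF was immunoprecipitated with ab128873 in 2 replicates from clone C32, an endogenous FLAG-Halo-CTCF knock-in, although the series description names unmodified cells. Each line was a clone per the study's methods, and the untagged U-2 OS line was not among the samples. The target, the line and the experiment changed together, so they cannot be told apart between Sp1 and CTCF. With 1 library per Sp1 antibody and no read counts, no test was run, and read depths were not used here.

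Oxidative phosphorylation passes electrons from NADH and succinate through complexes I, II, III and IV to oxygen and uses the resulting proton gradient at complex V to make ATP. Most subunits are encoded in the nucleus, and the rest in mitochondrial DNA. Their nuclear promoters are known for sites of NRF1, of the ETS factor GABP, of YY1 and of Sp1, a zinc-finger activator that binds GC boxes. CTCF is a zinc-finger protein known for its place at loop anchors and at many promoters.

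Sp1 summits lay at more members than at protein-coding genes at large. Antibody 1 had a summit at 55 of the 92 members (59.8%), against 37.5% of all protein-coding genes. Antibody 2 had one at 40 members (43.5%), against 24.2% of all genes. Both antibodies had a summit at 35 members (38.0%), against 21.2% of all genes. Either antibody reached 60 members (65.2%), against 40.4% of all genes. These shares stood above the background. For each antibody alone they were lower than in other gene sets that most cells use, although both antibodies together were at 38.0% of the proteasome genes too. Of the 78 mitochondrial ribosomal protein genes, 76.9% had a summit of antibody 1 and 57.7% of antibody 2. Of the 88 cytosolic ribosomal protein genes, 84.1% and 64.8% had one, respectively, and of the 50 proteasome genes 70.0% and 48.0%.

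Within 1 kb of a start, CTCF summits were about as frequent at members as over all genes. Within shorter distances they were more frequent at members than over all genes. Replicate 1 had a summit at 32 members (34.8%), against 32.5% of all genes. Replicate 2 had one at 26 members (28.3%), against 24.9%. Both replicates had one at 25 members (27.2%), against 24.3%. Within 250 bp of a start, both replicates had a summit at 20.7% of members, against 13.4% of all genes, and antibody 1 of Sp1 at 52.2%, against 32.2%. At the canonical start alone, both CTCF replicates had one at 22.8%, against 15.6%. Both CTCF replicates and at least 1 Sp1 antibody were present at 16 members (17.4%), against 12.5% of all genes. No library had a summit at 22 members (23.9%), against 43.8% of all genes. The IgG list held 106 peaks and had no summit within 5 kb of any member start, with the nearest at 128672 bp. So short a list says little about the members, and its share over all genes is not given here. Leaving out peaks that overlapped an IgG peak changed the antibody 1 count over all genes only from 7481 to 7478. Whether the difference in Sp1 share reflects how many of these genes are active in the cells was not tested.

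**Figure D1:**
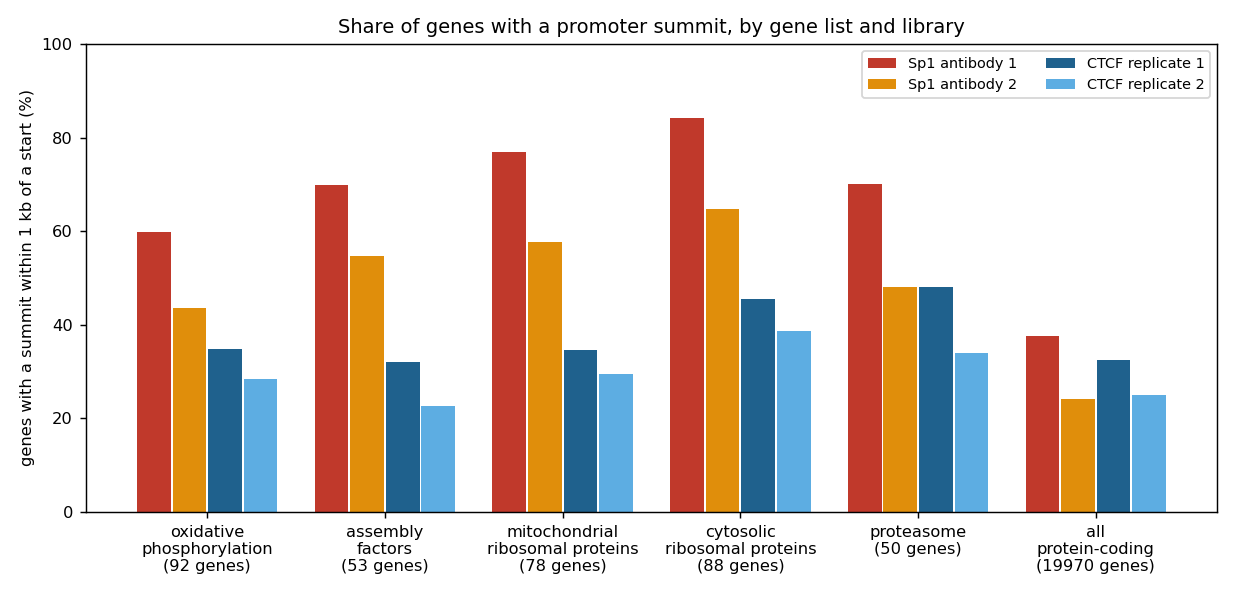
Share of genes (y axis, percent) with a peak summit within 1 kb of a transcript start, for 6 gene sets (x axis) and 4 libraries (bars). The members lie at 59.8% and 43.5% for the Sp1 antibodies, above all protein-coding genes (37.5% and 24.2%) and below the ribosomal protein genes, while their CTCF shares of 34.8% and 28.3% lie near those of all genes.

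The counts with Sp1 varied between complexes, against 40.4% of all genes with either antibody. Complex V, the ATP synthase, had a summit of either antibody at 16 of 20 genes. Complex I, the NADH dehydrogenase, had one at 26 of 40. Complex II, succinate dehydrogenase, had one at 3 of 4, and complex III, the cytochrome bc1 complex, at 6 of 10. Complex IV, cytochrome c oxidase, was the lowest at 8 of 17 (47.1%), and without its 6 tissue isoforms it stood at 7 of 11 (63.6%). Both CTCF replicates had a summit at 11 genes of complex I, 2 of complex II, 4 of complex III, 4 of complex IV and 4 of complex V, against 24.3% of all genes. NDUFA4 and NDUFA4L2 were counted with complex I by their symbols, although NDUFA4 is known as a subunit of complex IV. These counts are small, and the differences between complexes were not tested.

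Peak strength is given here as fold enrichment, the linear ratio of the signal at the summit to the background that the authors' peak caller modelled. Across members with a summit, the median fold was 8.19 for antibody 1 (n = 55), against 8.85 over all genes with a summit. It was 5.69 for antibody 2 (n = 40), against 7.02. It was 20.7 for CTCF replicate 1 (n = 32), against 22.6, and 12.8 for replicate 2 (n = 26), against 19.8. Members thus had a listed Sp1 antibody summit more often than genes at large, but their peaks were not stronger in the middle of the range. In 54 of the 55 members with antibody 1, and in all 40 with antibody 2, there was a single promoter summit. Most genes at large had a single summit too, at 6962 of 7481 with antibody 1 and 4615 of 4825 with antibody 2.

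**Figure D2:**
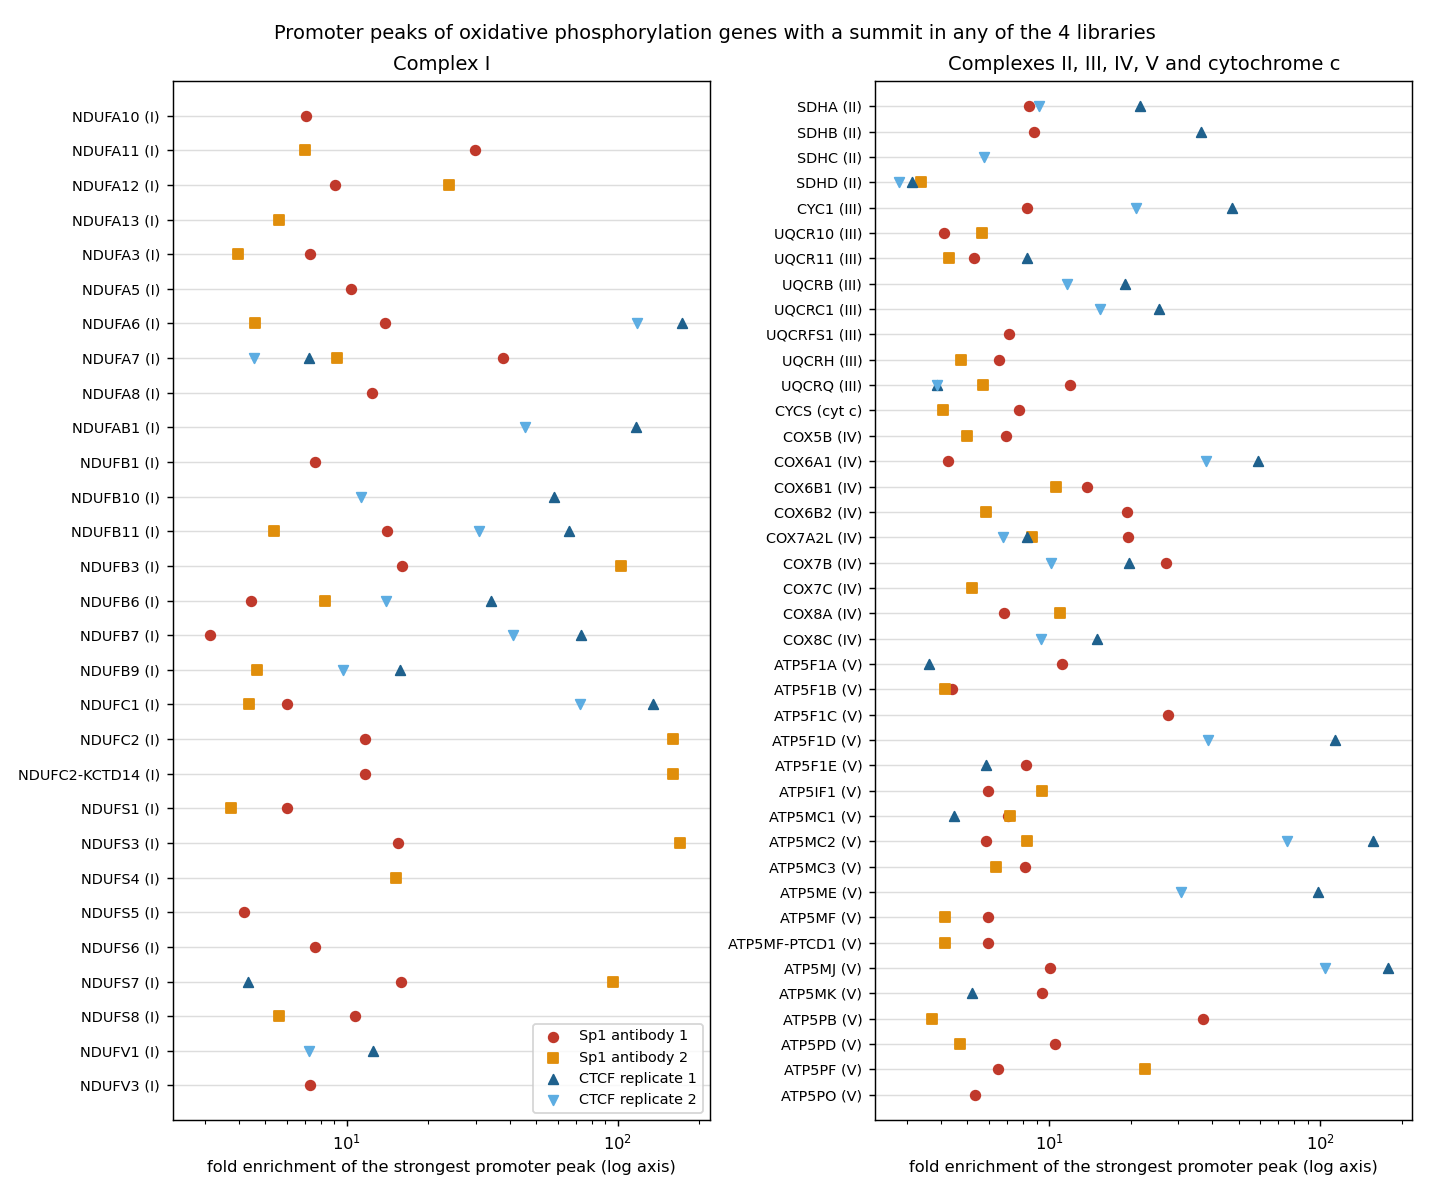
Fold enrichment of the strongest promoter peak (x axis, log scale) at members with a summit in any library (rows, complex in brackets), with a marker for each of 4 libraries and 1 member not shown. Squares far to the right mark antibody 2 at NDUFS3, NDUFC2, NDUFB3 and NDUFS7, at 95.8 to 169, whereas circles of antibody 1 end at 37.8.

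Antibody 2 had its strongest member peaks at genes of complex I. At NDUFS3, a core subunit of the hydrophilic arm, the fold was 169 with antibody 2 and 15.4 with antibody 1. At NDUFC2, an accessory subunit of the membrane arm, it was 160 and 11.7. The readthrough gene NDUFC2-KCTD14 shares this peak, so both symbols stand for a single region. At NDUFB3, another accessory subunit of the membrane arm, the fold was 102 and 15.9. At NDUFS7, a core subunit that carries an iron-sulfur cluster, it was 95.8 and 15.9. The summits of the antibodies lay 360 bp apart at NDUFS7 and 171 bp apart at NDUFB3, but 21 bp at NDUFS3 and 11 bp at NDUFC2. By fold, the NDUFS3 peak ranked 14 and the NDUFC2 peak 16 among the 5973 peaks of antibody 2, whereas the same promoters ranked 1379 and 2337 in the list of antibody 1. A gap followed below these promoters. The next members were NDUFA12, an accessory subunit of complex I, at 23.8, and ATP5PF, a subunit of the peripheral stalk of complex V, at 22.6. GABPA, which encodes the DNA-binding subunit of GABP, starts on the opposite strand near ATP5PF, and the peak is counted at both genes. The antibody 2 summit lay 60 bp downstream of the canonical GABPA start.

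Peaks of 50-fold or more made up 12.5% of the antibody 2 peaks at members (5 of 40, in 4 regions), against 6.2% over all genes. The share was 31.1% at mitochondrial ribosomal protein genes. Antibody 1 had no member peak of 50-fold or more, against 1.64% over all genes. At the 35 members with both antibodies, the log2 ratio of antibody 2 over antibody 1 had a median of −0.46, against −0.66 at 4233 genes. It ranged from −3.32 at ATP5PB to 3.78 at NDUFC2. The ratio exceeded 4-fold in favour of antibody 2 at 5 members (14.3%, against 7.11% over all genes) and in favour of antibody 1 at 3 (8.57%, against 3.85%). The rank correlation of the fold values was 0.323 across these 35 members and 0.322 across the 4233 genes, as a description over genes that share both libraries. The summits of both antibodies lay a median of 80 bp apart at members and 58 bp apart at all genes. The antibodies thus found many of the same promoters but ordered them differently.

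**Figure D3:**
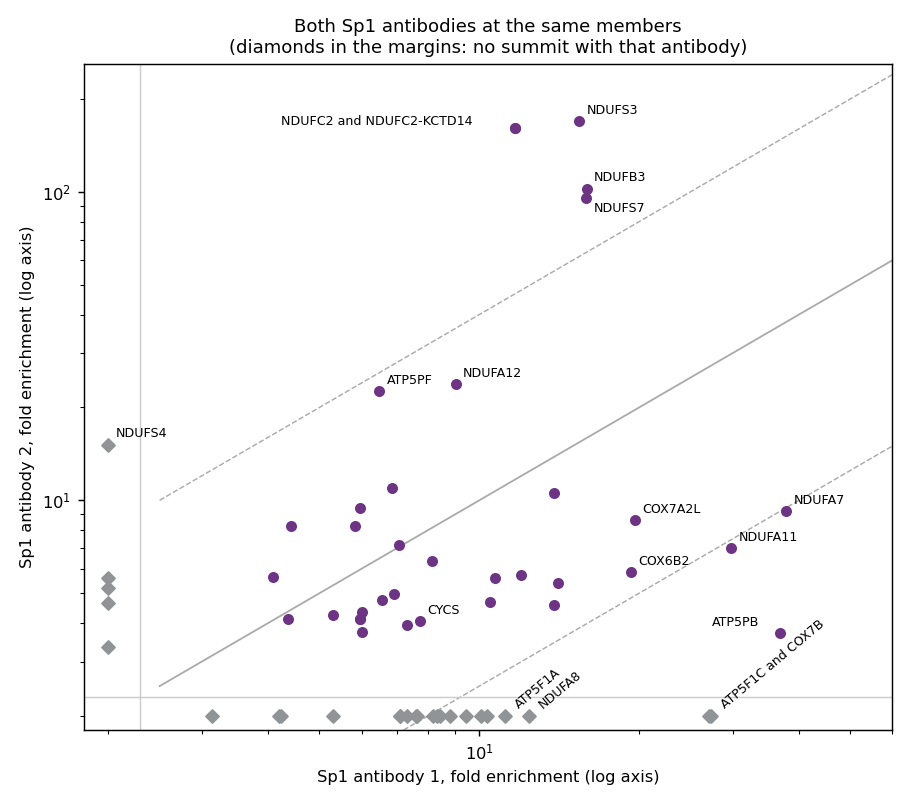
Fold enrichment with Sp1 antibody 1 (x axis) and antibody 2 (y axis), both on log scales, for each member with an Sp1 summit. The solid line marks equal values, the dashed lines a 4-fold ratio, and diamonds in the margins the members with no summit for the other antibody, among them ATP5F1C, COX7B and NDUFS4.

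The sequences under the strongest antibody 2 summits shared a short word. They are shown because these promoters part the antibodies. The hg38 sequence within 50 bp of the summit was read on the strand of the gene and shortened where it ran into an exon. Capitals mark CGGAAC or its reverse complement GTTCCG. The NDUFS3 stretch is chr11:47578952-47578981 (+), which overlaps the first exon of its opposite-strand neighbour KBTBD4, and the others are chr11:78079863-78079950 (−), chr2:201071890-201071990 (+) and chr19:1383792-1383892 (+).
NDUFS3: cccggagccCGGAACctccgcttccggctc
NDUFC2: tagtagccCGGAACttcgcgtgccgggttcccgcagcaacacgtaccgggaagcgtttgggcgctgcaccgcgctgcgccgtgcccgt
NDUFB3: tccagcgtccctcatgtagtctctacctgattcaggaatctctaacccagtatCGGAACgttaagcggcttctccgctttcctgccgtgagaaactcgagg
NDUFS7: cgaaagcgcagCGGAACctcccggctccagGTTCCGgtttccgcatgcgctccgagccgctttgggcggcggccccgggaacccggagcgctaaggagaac

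CGGAAC was read off these sequences after their values were known, so its presence in them is no finding. Genes outside the set give a separate description. Among antibody 2 summits at other protein-coding genes, CGGAAC lay within 50 bp of 6.35% of those under 5-fold (n = 898) and 7.8% of those from 5-fold to under 10-fold (n = 2614). The share was 13.3% from 10-fold to under 20-fold (n = 731), 35.9% from 20-fold to under 50-fold (n = 248) and 60.5% at 50-fold or more (n = 294). With antibody 1 it was 6.5% at 50-fold or more (n = 123) and 7.16% under 5-fold (n = 936), with no such rise. The word differs from the ETS core CCGGAAGT, which lay within 50 bp of 0 of the 40 antibody 2 summits at members, a count that allows a share of up to 7.5%, and of 7.09% over all genes. At genes outside the set the ETS core also became more frequent with antibody 2 fold, from 3.45% under 5-fold to 18.4% at 50-fold or more, and not with antibody 1 (4.38% and 2.44%). CGGAAC also occurred at the weaker antibody 2 summits of COX6B1 (10.6), NDUFA3 (3.96) and SDHD (3.36), but not at NDUFA12 or ATP5PF. A match is a run of letters and was not tested as a binding site.

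Antibody 1 had its strongest member peaks elsewhere. The fold at NDUFA7, an accessory subunit of complex I, was 37.8 with antibody 1 and 9.21 with antibody 2. At ATP5PB, subunit b of the peripheral stalk, it was 36.9 and 3.70. At NDUFA11, an accessory subunit of the membrane arm of complex I, it was 29.8 and 6.99. ATP5F1C, the gamma subunit of the central stalk, had a fold of 27.4, and COX7B, a small subunit of complex IV, one of 27.1, both with no antibody 2 summit within 1 kb. Except at NDUFA11, each of these summits had the word TCGCGAGA or its reverse complement within 50 bp, and NDUFA11 had it within its RefSeq promoter window. Capitals mark it in chr19:8321396-8321495 (−), chr1:111449328-111449428 (+), chr10:7788035-7788135 (+) and chrX:77899340-77899440 (+) of hg38, read as above.
NDUFA7: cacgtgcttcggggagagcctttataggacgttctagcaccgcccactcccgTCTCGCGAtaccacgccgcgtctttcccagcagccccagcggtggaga
ATP5PB: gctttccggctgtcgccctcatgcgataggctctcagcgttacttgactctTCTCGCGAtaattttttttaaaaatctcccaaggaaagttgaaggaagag
ATP5F1C: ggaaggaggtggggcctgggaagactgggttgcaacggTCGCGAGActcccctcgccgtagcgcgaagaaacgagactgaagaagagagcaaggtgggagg
COX7B: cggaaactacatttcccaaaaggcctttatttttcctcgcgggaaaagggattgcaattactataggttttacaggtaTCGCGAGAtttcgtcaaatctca

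TCGCGAGA lay within 50 bp of 4 of the 55 antibody 1 summits at members (7.27%), against 3.68% over all genes. All 4 were in the class from 20-fold to under 50-fold, which held 5 members. At genes outside the set, the share was 0.214% under 5-fold, 14.9% from 20-fold to under 50-fold (n = 707) and 44.7% at 50-fold or more (n = 123). Antibody 2 had the word at 0 of its 40 member summits and at 0 of 294 summits of 50-fold or more at other genes, which allows a share of up to 1.02%. At genes outside the set, the strongest peaks of each antibody thus held different words. The words may overlap with other motifs, and what protein was bound at them was not tested.

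**Figure D4:**
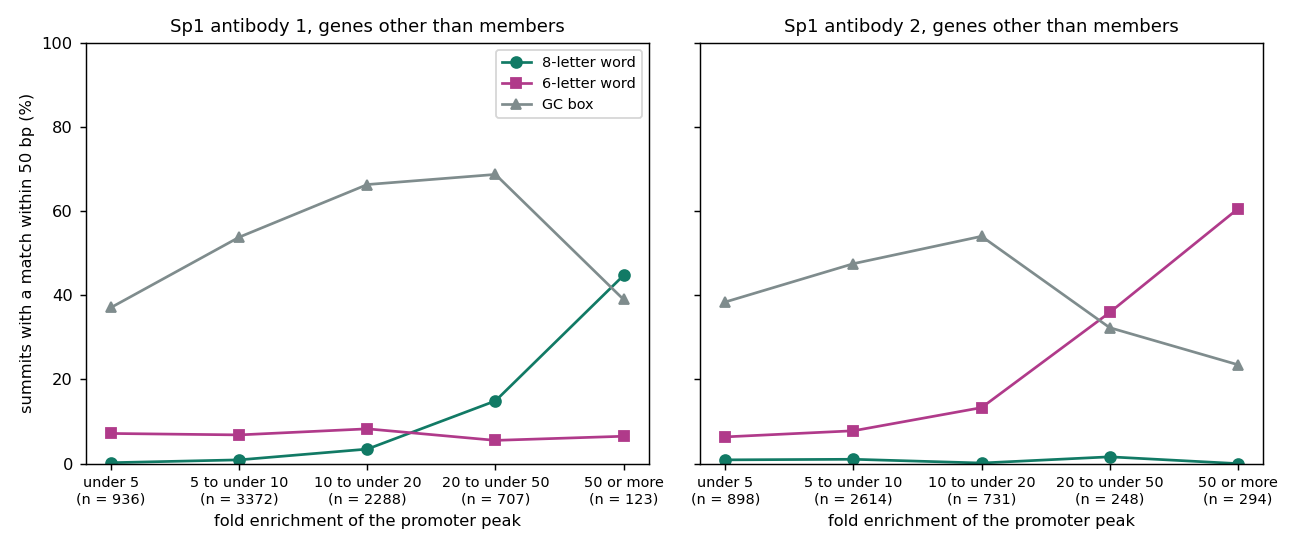
Share of promoter summits (y axis, percent) with a match within 50 bp, by fold class (x axis, number of summits below) for antibody 1 (left) and antibody 2 (right), at genes other than the members. The 8-letter word is TCGCGAGA, which reaches 44.7% only with antibody 1, and the 6-letter word is CGGAAC, which reaches 60.5% only with antibody 2, and triangles give the GC box GGGCGG.

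The GC box GGGCGG, the letters known as the Sp1 site, did not single out the members. It lay within 50 bp of 26 of the 55 antibody 1 summits at members (47.3%), against 56.7% over all genes, and of 9 of the 40 antibody 2 summits (22.5%), against 44.4%. RefSeq promoter windows (GRCh38.p14, 250 bases before to 50 after a start) matched 72 members and 15315 protein-coding genes by symbol. In these windows the GC box occurred in 59.7% of members and 59.2% of all genes. It occurred in 34 of 52 windows of members with a summit of either Sp1 antibody and in 9 of 20 windows of members without. The median GC content was 61.2% at members and 63.0% at all genes.

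Other known elements were more frequent in member windows than in all windows, on both strands. The letters GCGCATGC, part of the NRF1 site, occurred in 14 of 72 member windows (19.4%), against 4.24% of all windows. The YY1 core AAGATGGC occurred in 11 (15.3%), against 3.98%. The ETS core CCGGAAGT, the site of GABP, occurred in 10 (13.9%), against 6.33%. The cyclic AMP response element TGACGTCA occurred in 5 (6.94%), against 2.64%, and TCGCGAGA in 5 (6.94%), against 1.79%. The CCAAT box was alike at 36.1% and 36.6%. All 10 windows with the ETS core belonged to members with an Sp1 summit, and 0 of the 20 windows of members without Sp1 held it. The NRF1 letters occurred in 12 of the 52 windows with Sp1 and 2 of the 20 without. For an element in 13.9% of member windows, 20 windows are too few to read a count of 0 as a difference. These splits by Sp1 were not made over all genes and were not tested.

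The ETS core is shown for a subunit of each of 3 complexes. COX5B, a subunit of complex IV, had a fold of 6.91 with antibody 1 and 4.96 with antibody 2, with both summits at the same base. SDHD, a membrane anchor of complex II, had 3.36 with antibody 2 only, the lowest antibody 2 fold at any member. UQCRH, the hinge protein of complex III, had 6.56 and 4.74. Capitals mark the ETS core on either strand in the part of the RefSeq window before the start, at chr2:97645985-97646061 (+), chr11:112086755-112086842 (+) and chr1:46303611-46303697 (+). The SDHD stretch also holds the NRF1 letters, in lower case.
COX5B: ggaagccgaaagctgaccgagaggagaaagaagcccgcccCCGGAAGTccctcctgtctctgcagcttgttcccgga
SDHD: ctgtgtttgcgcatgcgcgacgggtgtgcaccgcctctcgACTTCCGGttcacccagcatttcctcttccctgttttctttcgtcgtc
UQCRH: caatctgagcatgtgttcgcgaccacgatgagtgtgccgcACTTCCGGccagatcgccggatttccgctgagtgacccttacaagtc

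Complex II and cytochrome c had weak to moderate Sp1 peaks. SDHA, the flavoprotein that oxidizes succinate, had a fold of 8.45 with antibody 1, and 21.7 and 9.21 in the CTCF replicates. SDHB, the iron-sulfur subunit, had 8.79 with antibody 1 and 36.2 in CTCF replicate 1. That CTCF summit lay in intron 1, 7755 bp downstream of the canonical start, whereas the antibody 1 summit lay 180 bp upstream of it. It was counted because another start lay 995 bp away, just inside the limit. The CTCF summit of replicate 2 lay at 1006 bp with a fold of 22.5 and was not counted. SDHC, the other membrane anchor, had a summit only in CTCF replicate 2, at 5.76. SDHD had CTCF folds of 3.13 and 2.80. CYCS, cytochrome c, had Sp1 folds of 7.75 and 4.06 and no CTCF summit. CYC1, cytochrome c1 of complex III, had 8.31 with antibody 1, and its CTCF folds of 47.5 and 20.9 came from a summit in exon 3 of its canonical transcript. No gene of complex II had summits of both Sp1 antibodies.

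Members with 1 Sp1 antibody only were mostly those of antibody 1, as over all genes. Antibody 1 alone had a summit at 20 members (21.7%, against 16.3% of all genes), led by ATP5F1C, COX7B and NDUFA8 (12.4). Antibody 2 alone had one at 5 members (5.43%, against 2.96%). These were NDUFS4 (15.2), an accessory subunit of complex I, NDUFA13 (5.60), COX7C (5.18), NDUFB9 (4.65) and SDHD. Antibody 1 listed 8706 peaks and antibody 2 listed 5973, and how far this difference in length shaped the counts was not tested.

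No Sp1 summit was found at 32 members, and the nearest Sp1 summit of either antibody lay between 5294 bp (NDUFB10) and 854675 bp (UQCRB) from their starts. Of these, 9 had summits of both CTCF replicates. Among them were NDUFAB1, NDUFB10, NDUFV1, UQCRB, UQCRC1, COX8C, ATP5F1D and ATP5ME. SDHC had CTCF replicate 2 only. The other 22 had no summit in any library. In complex I these were NDUFA1, NDUFA2, NDUFA4, NDUFA4L2, NDUFA9, NDUFB2, NDUFB4, NDUFB5, NDUFB8 and NDUFV2, and in complex III UQCRC2 and UQCRHL. In complex IV they were COX4I1, COX4I2, COX5A, COX6A2, COX6C, COX7A1, COX7A2 and COX7B2, and in complex V ATP5MG and ATP5MGL. Several of these, such as COX4I1 and COX5A, are known as subunits that nearly all cells make. The absence of a listed summit does not show the absence of Sp1.

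Isoforms and like-named copies, picked by symbol, were compared with their common counterparts. Not all of them are known as tissue isoforms. Of these 9 genes, 1 had an Sp1 summit, and of the 9 counterparts 5 had one (11.1% and 55.6%, against 40.4% of all genes). COX6B2, known from testis, had 19.3 and 5.85, against 13.9 and 10.6 at COX6B1. COX8C had no Sp1 summit but CTCF folds of 15.0 and 9.34, whereas COX8A had Sp1 folds of 6.85 and 11.0. COX4I2, COX6A2, COX7A1, COX7B2, NDUFA4L2, UQCRHL and ATP5MGL had no summit in any library. Their counterparts COX6A1, COX7B and UQCRH had Sp1 summits, but COX4I1, COX7A2, NDUFA4 and ATP5MG had none either. UQCRHL is a near-identical copy of UQCRH, and whether reads were placed with certainty between them was not tested. The UQCRH summits lay 288 bp (antibody 1) and 148 bp (antibody 2) upstream of its start. Without the 9 isoforms and copies, antibody 1 had a summit at 65.1% and antibody 2 at 47.0% of the remaining 83 members.

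CTCF folds at members ran from 3.13 to 178 in replicate 1 and from 2.80 to 118 in replicate 2. The strongest in replicate 1 was at ATP5MJ, a small membrane subunit of complex V, with 178, and 104 in replicate 2. NDUFA6, an accessory subunit of complex I, had 173 and 118, the highest in replicate 2. ATP5MC2, which encodes a subunit c of the rotating ring, had 156 and 75.6. NDUFC1 had 135 and 72.7, and NDUFAB1, the mitochondrial acyl carrier protein, had 116.6 and 45.4. A fold of 50 or more in replicate 1 was reached at 11 members, 34.4% of those with a summit, against 34.2% over all genes. In replicate 2 it was reached at 4 (15.4%), against 22.4%. The replicates ordered the 25 shared members alike, with a rank correlation of 0.973 as a description. Replicate 2 was lower at 24 of them, with a median log2 ratio of −0.79, against −0.95 over 4843 genes. The widest gap was at NDUFB10, with 58.0 and 11.3, a ratio of 5.13. The summits of the replicates lay a median of 6 bp and at most 45 bp apart.

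The letters of the CTCF core, a consensus with degenerate positions searched on both strands, were found within 50 bp of 4 of the 32 replicate 1 summits at members (12.5%), against 8.7% over all genes. These were at ATP5F1D, COX6A1, NDUFB6 and CYC1. No member window of RefSeq held the core, against 0.529% of all windows. ATP5F1D, COX6A1 and NDUFB6 are shown with the match in capitals, and each of these summits lay inside the gene and not before its canonical start. The ATP5F1D match is in exon 4 (chr19:1244543-1244572, +), the COX6A1 match in intron 2 (chr12:120439786-120439886, +) and the NDUFB6 match in intron 1 (chr9:32572411-32572511, −). The strongest CTCF members, ATP5MJ (chr14:103921577-103921677, −) and NDUFA6 (chr22:42090965-42091065, −), had no such match and are shown with the summit base in capitals. The pattern is strict, and over all genes it lay at only 17.9% of replicate 1 summits of 50-fold or more. A missing match therefore does not show that a CTCF site is absent.
ATP5F1D: ccaaggaggCCACCAGAGGGCagtgcaggc
COX6A1: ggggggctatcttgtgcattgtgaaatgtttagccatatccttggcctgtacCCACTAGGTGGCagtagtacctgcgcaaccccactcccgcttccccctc
NDUFB6: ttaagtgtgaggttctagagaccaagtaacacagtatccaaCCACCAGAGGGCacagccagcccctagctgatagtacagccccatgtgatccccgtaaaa
ATP5MJ: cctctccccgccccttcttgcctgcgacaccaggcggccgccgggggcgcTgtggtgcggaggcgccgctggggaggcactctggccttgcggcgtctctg
NDUFA6: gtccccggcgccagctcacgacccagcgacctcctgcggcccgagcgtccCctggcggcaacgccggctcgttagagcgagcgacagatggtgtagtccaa

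The 9 members with CTCF in both replicates and no Sp1 summit covered a wide range. NDUFAB1 was the strongest, followed by ATP5F1D, the delta subunit of the central stalk, with 114 in replicate 1 and 38.6 in replicate 2. ATP5ME, subunit e of complex V, had 97.8 and 30.8, and UQCRC1, a core protein of complex III, had 25.4 and 15.4. UQCRB, a small subunit of complex III, had 19.1 and 11.6. NDUFV1, the core subunit of complex I that binds NADH, had 12.5 and 7.25. With a single Sp1 antibody, both CTCF replicates were also listed at NDUFB7 (72.8 and 41.1), COX6A1 (59.0 and 37.9), COX7B (19.7 and 10.1) and NDUFB9 (15.8 and 9.67).

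A CTCF summit was listed in 1 replicate only at 8 members, 7 of them in replicate 1. This did not set the members apart. Either replicate had a summit at 35.9% of members, against 33.1% of all genes, and both at 27.2%, against 24.3%. The replicate 1 folds were 36.2 at SDHB and between 3.60 (ATP5F1A) and 8.29 (UQCR11) at the other members, and SDHC was the member with replicate 2 only.

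Where Sp1 and CTCF were both present, their summits were often close. At the 14 members with antibody 1 and both CTCF replicates, the nearest pair of summits lay a median of 136 bp apart, against 374 bp at 2309 genes. At ATP5MJ the distance was 24 bp, at NDUFB11 30 bp and at ATP5MC2 55 bp. NDUFB11 had the antibody 2 and CTCF summits at the same base. At NDUFC1 and COX6A1 the summits belonged to different starts, 5559 bp and 1766 bp apart. All of Sp1 antibody 1, antibody 2 and both CTCF replicates were present at 8 members (8.7%), against 6.71% of all genes. They were NDUFA6, NDUFA7, NDUFB6, NDUFB11, NDUFC1, UQCRQ, COX7A2L and ATP5MC2. CTCF at members with and without Sp1 differed by replicate. Replicate 1 was at 38.3% of the members with either Sp1 antibody and 28.1% of those without, and replicate 2 at 26.7% and 31.2%. Both CTCF replicates were at 26.7% of the 60 members with either Sp1 antibody and at 28.1% of the 32 without, whereas over all genes the shares were 30.8% and 19.8%. These differences were not tested.

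Sp1 summits sat just upstream of the starts. With upstream positions negative, the median was −55 bp for antibody 1 and −71 bp for antibody 2, against −61 and −58 bp over all genes. The summit was upstream at 85.5% and 80.0% of members, against 80.1% and 75.1% of all genes, and within 250 bp of a start at 87.3% and 85.0%, against 84.8% and 82.0%. CTCF summits were more spread, with medians of −126 and −103 bp and with 65.6% and 69.2% within 250 bp, against 54.4% and 53.1% over all genes. The CTCF summits lay upstream at 75.0% and 76.9% of members, against 61.6% and 63.5% of all genes. The like sets had similar shares, with 77.5% and 82.4% at cytosolic ribosomal protein genes. The shares were 74.1% and 78.3% at mitochondrial ribosomal protein genes, and 79.2% and 76.5% at proteasome genes.

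**Figure D5:**
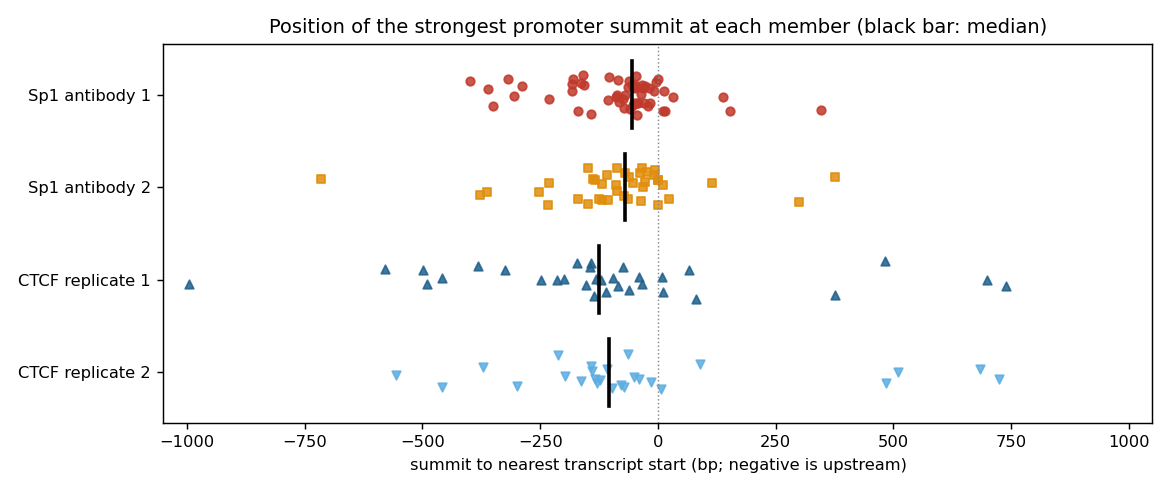
Distance in bp from the strongest promoter summit of each member to its nearest transcript start (x axis, negative upstream) for the 4 libraries (rows), with the median as a black bar. Most Sp1 points cluster within 250 bp upstream, and CTCF points reach from 995 bp upstream to 740 bp downstream.

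Members shared a promoter region with another gene more often than genes at large, a difference that was not tested. A protein-coding gene on the opposite strand started within 1 kb of the canonical start of 30 members (32.6%, against 13.9% of all genes), such as RPS28 at NDUFA7, KBTBD4 at NDUFS3 and KIN at ATP5F1C. Either Sp1 antibody was present at 23 of these 30 and at 37 of the other 62. The same split was not made over all genes, so these counts have no background to be read against. A peak between such starts cannot be assigned to either gene. The readthrough genes NDUFC2-KCTD14 and ATP5MF-PTCD1 share their peaks with NDUFC2 and ATP5MF, so 54 distinct antibody 1 peaks and 38 distinct antibody 2 peaks lay at the members.

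The genes that build and regulate the complexes are given for comparison. Of 53 assembly factors, 37 had a summit of antibody 1 (69.8%), 29 of antibody 2 (54.7%) and 12 of both CTCF replicates (22.6%). Over all genes these shares were 37.5%, 24.2% and 24.3%. Peaks of 50-fold or more made up 17.2% of the antibody 2 peaks of this list (5 of 29). The share was 6.2% over all genes and 31.1% at mitochondrial ribosomal protein genes. These peaks were at TACO1 (109), a translation activator of a complex IV subunit, and at UQCC6 (87.7), COA6 (68.9), SDHAF3 (68.3) and COX16 (62.8). COX11, a copper chaperone of complex IV, had 118 with antibody 1 and no antibody 2 summit. Of 22 genes listed as regulators, 11 had a summit of antibody 1 (50.0%), 13 of antibody 2 (59.1%) and 9 of both CTCF replicates (40.9%). TEFM (90.7), SSBP1 (85.2) and MTERF4 (82.9), all from that list, had antibody 2 summits and none of antibody 1. TFAM, the packaging factor of mitochondrial DNA, had 8.55 and 4.51 with the Sp1 antibodies and 49.3 and 32.7 in the CTCF replicates, and NRF1 itself had no summit in any library.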

How the data were processed

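Peak lists were taken as the authors deposited them, 1 per immunoprecipitated library. The submitters' processing notes name cutadapt 2.6, Bowtie2 2.4.5, SAMtools 1.15.1, MACS2 2.2.7.1, bedtools 2.27.1 and deepTools 3.5.4. The study's methods describe peak calling with a liberal p cutoff, no local background and merged controls ahead of a reproducibility analysis. The smallest −log10 q in the deposited Sp1 and CTCF lists was 1.30, which is another threshold, so the settings behind these lists are uncertain. Read numbers that the study lists elsewhere were not used here. Each deposited list gives a fold enrichment (a ratio), −log10 p and q values and an integer score. The fold was used throughout, and the score was not. Input libraries were not analysed here. The Sp1 and CTCF lists differed in length, from 5973 to 42765 peaks, and a longer list can raise a share. Whether depth or antibody set the lengths was not tested.

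Summits were assigned to GENCODE release 44 transcript starts on hg38 with Python 3.11.15, numpy 2.4.6 and pandas 2.3.3, and plotted with matplotlib 3.10.9. A gene took its strongest summit within 1 kb. Words were searched on both strands within 50 bp of summits and in RefSeq windows. The calls were checked on simulated data. Genes named were the 5 members with the highest fold in each library, and members without Sp1 or with both CTCF replicates. Complex II, cytochromes c and c1, isoforms and like-named copies with their counterparts, and the 3 strongest with 1 Sp1 antibody were also named. Others, such as NDUFA12, COX5B and the named assembly factors and regulators, were chosen after their values were seen. Members and gene lists were chosen with earlier results of these data known, and CGGAAC after its sequences were read. A result for 1 gene is not reported here. No test was run. Other windows, a stricter q, the canonical start, removal of IgG peaks or readthrough genes and left-out libraries were tried as alternatives.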

Additional observations from a re-analysis of the deposited data

How the results depend on the processing

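Of 71 alternatives, 64 left the value alike and 7 moved it. A count was alike within 1.5 times, and a median fold only if its rounded value did not change. The 8 members with both Sp1 antibodies and both CTCF replicates became 5 with summits within 250 bp and 14 within 5 kb, and 14 with Sp1 antibody 1 alone. The GC box fell from 43 to 10 members with the longer box GGGGCGGGG, at 13.9% of member windows against 22.8% of all. Within 500 bp, the median fold went from 5.69 to 5.66 for antibody 2, from 20.7 to 19.7 for CTCF replicate 1 and from 12.8 to 15.4 for replicate 2. The causes were not tested. Leaving out a CTCF replicate gave 26 to 32 members with CTCF and 8 to 11 with both Sp1 antibodies as well. The share of members exceeded that of all genes in 59 of 62 count alternatives. The exceptions were CTCF within 5 kb, with 48.9% against 51.7% in replicate 1, 37 members (40.2%) against 8779 of all 19970 genes in replicate 2 and 39.1% against 43.4% in both.

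No paired analysis was possible because no result came from a test and the Sp1 libraries had no replicates. With 1 library per Sp1 antibody, library and antibody cannot be told apart. Read depths were not used here, so a summit missing from a list is not evidence of its absence.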
